A study of Caenorhabditis elegans with 6 samples.

Results

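The core and variant histone genes of Caenorhabditis elegans were followed across both cells of the 2-cell embryo. They were taken as every gene model whose public name begins with his- and a number, together with htz-1, and the centromeric histone genes hcp-3 and cpar-1 were kept apart. This gave 68 of the 20240 gene models in the matrices: 17 for H2A, 14 for H2B, 14 for H3, 16 for H4, 5 for variants of H3, 1 for the H2A variant H2A.Z and 1 for linker histone H1. Names, not levels, chose them, though earlier results of these data were known.

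DNA in the nucleus is wound around octamers of the core histones H2A, H2B, H3 and H4, and linker histone H1 binds where DNA enters and leaves the octamer. In animals, most core histone mRNAs are made in S phase from clustered, nearly identical genes without introns and end in a stem-loop in place of a poly(A) tail, whereas mRNAs of replacement variants such as H3.3 and H2A.Z are spliced, polyadenylated and made outside S phase as well. The early worm embryo divides before its own transcription begins in earnest and lives on RNA and protein supplied by the mother.

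The libraries were made from P1, the posterior cell that founds the germline among other tissues, and from AB, its anterior sister, both dissected by hand from embryos of wild-type N2 worms. There were 3 libraries of P1 and 3 of AB, each from several pooled cells, and libraries with the same replicate number came from matched cells. RNA was amplified by in vitro transcription from an oligo(dT) primer before sequencing (RNA-amp-seq), a step that starts at poly(A). In such pools, fewer cells and less RNA per cell cannot be told apart. Totals of counted reads ran from 21249850 to 26237094 in P1 and from 26971551 to 35591254 in AB, so that 3 reads corresponded to between 0.0843 and 0.141 CPM (counts scaled to the library total), a floor that covers counting error only. As a check of the labels, mex-3, whose mRNA is known to be more abundant in AB, was called lower in P1 (log2 fold change -0.98, edgeR adjusted p = 0.0675). The genes taken as P1 markers, pos-1, nos-2 and cey-2, had log2 fold changes of 0.18, 0.40 and 0.47. None of them was called (edgeR adjusted p = 0.825, 0.682 and 0.686), so the check rests on mex-3. The study did not call pos-1 and cey-2 either. By its account, cey-2 mRNA is at first even between the cells, and nos-2 mRNA is lost from somatic cells only at a later stage. P1 replicate 1 stood apart from the rest, with log2 correlations across gene models of 0.911 to 0.924 to the other libraries, against 0.951 to 0.980 among those, and it had the lowest total.

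Reads were counted on 37 of the 68 histone gene models, and 31 had none in any library. Whether a model had reads followed how its line was named. In 34 lines the RefSeq name column lists several copies or a copy that recurs in another line. Of these, 29 had 0 reads, 1 (his-16) had 1 read and 4 had between 15 and 78 reads over the 6 libraries. The 34 lines together held 188 reads, 0.0505% of all histone reads. The other 34 lines name 1 copy, and 32 of them had reads, 372433 in all, with a median of 258.5 per model. The 2 without reads were his-39, an H2B gene, and his-70, an H3 variant gene.

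**Figure D1:**
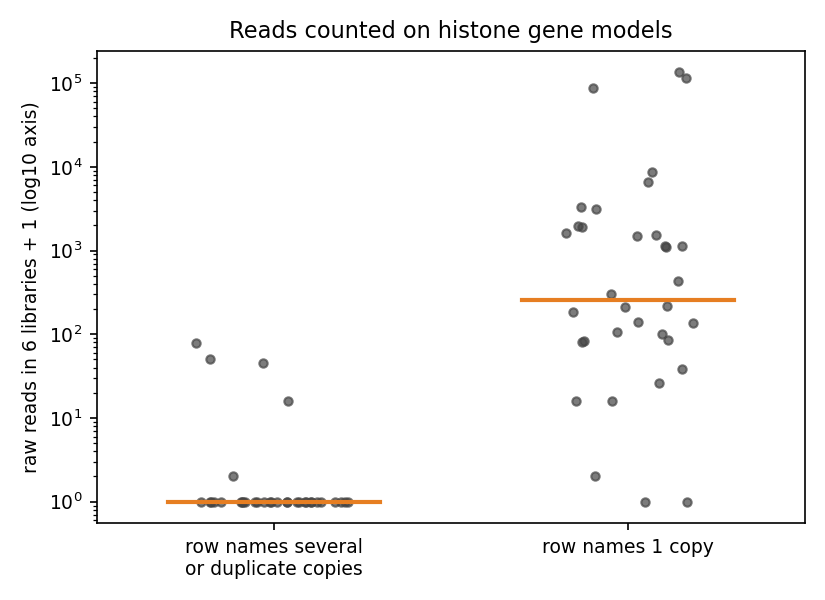
Raw reads summed over the 6 libraries plus 1, on a log10 axis, for each of the 68 histone gene models (points, spread sideways at random), split by whether the line names several or duplicate copies (left) or 1 copy (right). Orange lines are medians, 0 reads on the left and 258.5 on the right.

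Histone copies of a class share nearly all of their coding sequence, and how reads that match several copies were counted is not given in the sources used here. The values of a copy are therefore uncertain as to which copy made the RNA, and a 0 says only that no read was assigned there. Of the 29 multi-name lines at 0, 25 had a model length in the files equal to the spliced length of the gene in the WBcel235 annotation, with no model longer than 426 bases. The 4 multi-name lines with more than 1 read (his-45, his-47, his-58 and his-11) had models of 499 to 586 bases. All 7 multi-name H4 lines were at 0, as were 10 of 12 for H2A, 6 of 8 for H2B and 6 of 7 for H3. No line of the variant or linker genes named more than 1 copy. No histone model overlapped another gene model in the files.

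A gene model was taken as present when its normalized read count, the raw count divided by 1 size factor per library, averaged over 10 in all libraries and was above 0 in each cell. By this rule, which follows the study's code, 28 histone genes were present and 40 were not. With the limit of 50 given in the study's text, 16 were present. Of the 40, 9 had some reads, never more than 25 in a library. The present gene with the lowest mean was his-45 at 12.9 normalized read counts, and the highest mean below the limit was 8.12, of his-47.

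Of 372621 histone reads, 90.3% fell on htz-1, his-72 and his-74. The H3 variant genes took 54.5% and H2A.Z 36.2%, against 2.98% for H2A, 2.94% for H2B, 1.89% for H4, 0.956% for H3 and 0.513% for H1. Per kilobase of spliced length, the summed mean normalized read counts were 55402 for the H3 variants and 30659.6 for H2A.Z. The core classes followed with 4555 for H2A, 3846 for H2B, 3338 for H4 and 1448 for H3, and the H1 gene his-24, the 1 linker gene among the members, had 265. The linker histone genes named hil are outside these classes. With the model length of the files, H2A.Z had 22595 and H2B 2065. All of these are levels of counted reads, from which RNA without poly(A) and uncounted reads of multi-name lines may be missing.

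Levels were also set beside the number of exons. In the WBcel235 annotation 9 members have more than 1 exon, and 8 of them (his-24, htz-1, his-35, his-37, his-41, his-71, his-72 and his-74) were present. These 8 held 95.3% of the histone reads, most of it on htz-1, his-72 and his-74. The ninth, the H2A gene his-57, is a multi-name line at 0. Of the 59 genes with a single exon, 20 were present, and all 59 together held 4.69% of the reads. Median levels per kilobase were 2082 normalized read counts for the 8 genes with introns and 100.4 for the 20 without, against 831 over all present gene models with a length. The ranges overlapped, from 265 to 30659.6 with introns and from 31.5 to 2885 without, and the single-exon his-68 lay above 5 of the 8 genes with introns. By level per kilobase htz-1 ranked 48, his-72 ranked 50 and his-74 ranked 70 among 7806 present gene models. The single-exon gene that ranked highest was his-68, at 1668. Without division by length, htz-1, his-72, his-74 and his-68 ranked 149, 197, 288 and 4141. That ranking covers 7945 present gene models.

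The comparison of P1 with AB asked which mRNAs the first division leaves unequal between the sisters. No histone gene passed the test in either direction (edgeR quasi-likelihood test, adjusted p under 0.10 over all gene models). The smallest adjusted p was 0.550. Over all 7945 present gene models, 0.856% were called higher and 0.604% lower in P1, 1.46% in either direction. Read against that share, a count of 0 among 28 genes is near the background. DESeq2 also called none, and it gave no adjusted p for his-24. At an unadjusted edgeR p under 0.05 there were 2 histone genes, his-37 with a positive and his-24 with a negative log2 fold change, where the background was 5.8% positive and 4.59% negative, or 10.4% in all, of present gene models.

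**Figure D2:**
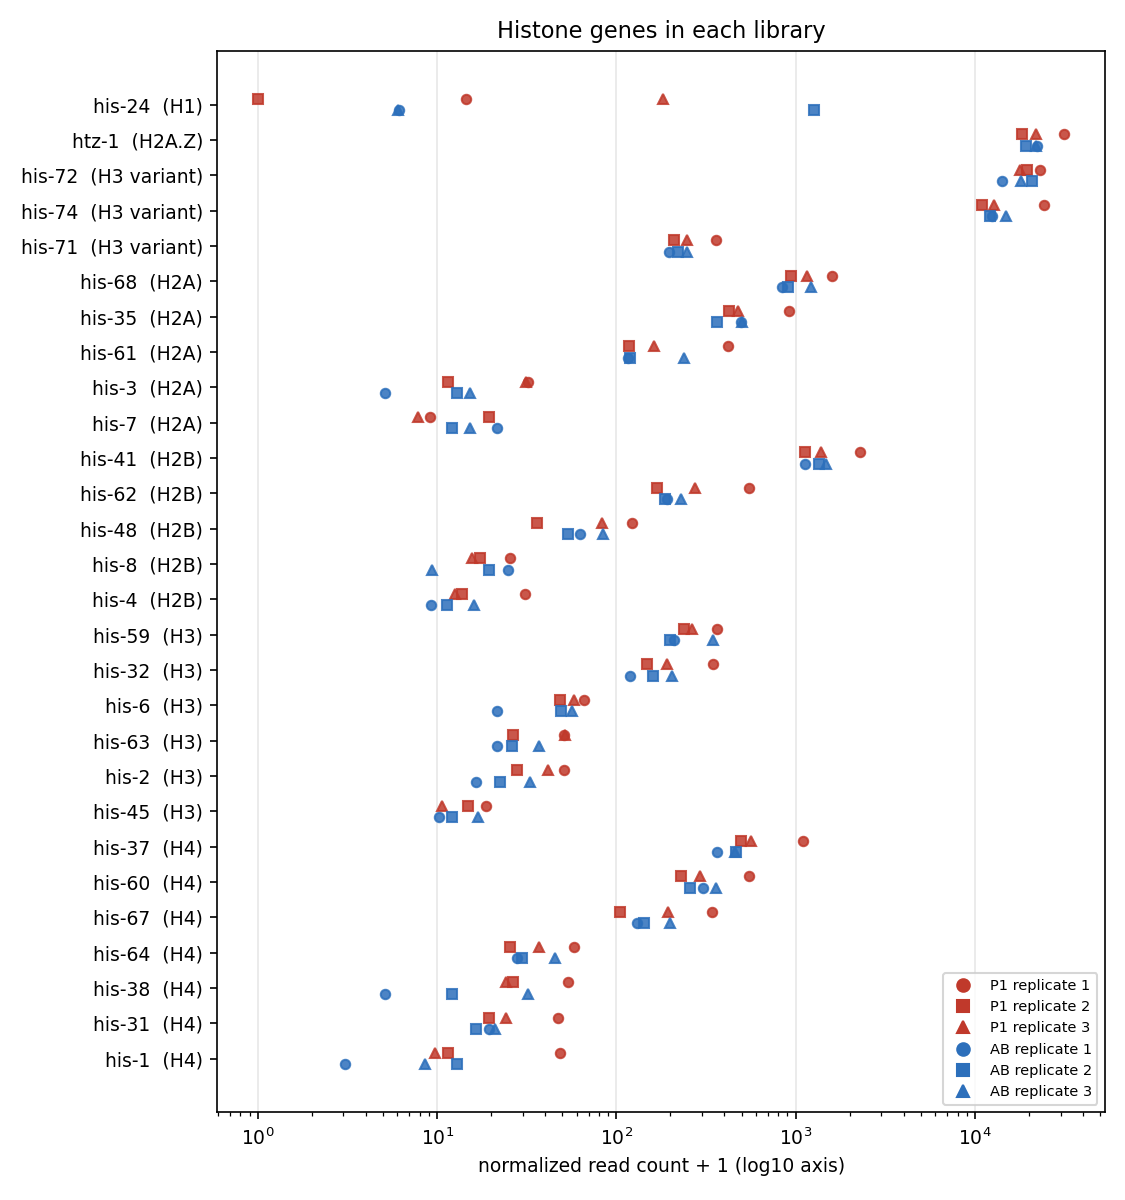
Normalized read count plus 1, on a log10 axis, of the 28 present histone genes in each P1 library (red, upper row of each gene) and each AB library (blue, lower row). Marker shapes give the replicate number. P1 replicate 1 (red circles) is the highest library for 25 of the 28 genes, and P1 and AB values overlap for 27 of them.

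Beginning with the variants, his-72 and his-71 both encode H3.3, the replacement form of H3, and their levels differed widely. The count of his-72 (III:12367374-12368065 in ce10, 2 exons) was 23176, 19379 and 17771 in P1 replicates 1, 2 and 3, against 14128, 20665 and 18062 in AB. The groups overlapped, and the lowest library was AB replicate 1. The log2 fold change (P1/AB) was 0.18 (SE 0.24, 95% interval -0.32 to 0.68, edgeR adjusted p = 0.796). The X-linked his-71 (X:7981334-7982027, 3 exons) had 357, 209 and 247 normalized read counts in P1, against 194, 220.0 and 247 in AB. Its log2 fold change was 0.29 (SE 0.37, edgeR adjusted p = 0.785). Per kilobase, his-72 exceeded his-71 by 71.9-fold. In normalized read counts the ratio was between 64.9 and 92.6 in the 3 P1 libraries, against 72.7 to 93.9 in the 3 AB libraries, so that the cells overlapped in it.

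A further H3 variant gene, his-74 (V:12659689-12660313, 2 exons), had 24258, 10873 and 12786 normalized read counts in P1, against 12423, 12155 and 14805 in AB. Only P1 replicate 1 lay above all AB libraries, and the other P1 libraries lay within or below them. The log2 fold change was 0.27 (SE 0.27, 95% interval -0.28 to 0.82, edgeR adjusted p = 0.746). On chromosome III his-69 and his-70, the remaining H3 variant genes, were not present: his-69 had 1, 2 and 0 raw reads in P1, against 7, 2 and 3 in AB, and his-70 had none. Of all normalized read counts on H3 and H3 variant genes, the variants made up 98.2% ± 0.168 in P1 and 98.4% ± 0.360 in AB (SD, n = 3 each). These shares overlapped between the cells. They are shares of counted reads. RNA without poly(A), and reads not counted because they match several copies, may be missing from them.

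H2A.Z, encoded by htz-1 (IV:4445995-4446990, 2 exons), replaces H2A in nucleosomes at many promoters. It had the highest mean of the 68 genes, with 31526, 18374 and 21924 normalized read counts in P1, against 22155, 19278 and 21769 in AB. P1 held both the highest and the lowest library. The log2 fold change was 0.18 (SE 0.25, 95% interval -0.34 to 0.69, edgeR adjusted p = 0.816). As a share of the counts on H2A and H2A.Z genes it was 92.0% ± 0.559 in P1 and 92.8% ± 1.09 in AB (SD, n = 3 each), again with overlap. This too is a share of counted reads, with the same limits as for the H3 variants.

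Among the H2A genes, which form a dimer with H2B on the outside of the octamer, his-68 on chromosome I led with 1597, 945 and 1151 normalized read counts in P1, against 840.0, 904 and 1209 in AB. Its log2 fold change was 0.31 (SE 0.26, edgeR adjusted p = 0.720). The present H2A gene with an intron, his-35 (V:9544652-9545266), had 916, 423 and 478 in P1, against 497, 364 and 503 in AB. Its log2 fold change was 0.40 (SE 0.32, edgeR adjusted p = 0.713). For both genes the groups overlapped and P1 replicate 1 was the highest library. The other 3 present H2A genes (his-61, his-3 and his-7) included his-7, which besides his-24 was the only present histone gene with a negative value (log2 fold change -0.45, SE 1.24, at a mean of 13.3 normalized read counts).

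The leading H2B gene was his-41 (V:9545498-9546805), which has 2 exons. It had 2272, 1131 and 1385 normalized read counts in P1, against 1126, 1349 and 1474 in AB, with a log2 fold change of 0.27 (SE 0.26, edgeR adjusted p = 0.746). The second, his-62 (IV:7486534-7486905), had 544, 167 and 273 in P1, against 191, 185 and 227 in AB. The log2 fold change of his-62 was 0.69 (SE 0.40, edgeR adjusted p = 0.686), with P1 replicate 2 below all AB libraries and the other P1 libraries above them. All 5 present H2B genes had positive log2 fold changes, 0.12 to 0.69, and P1 replicate 1 was the highest library for each.

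H3 and H4 form the tetramer at the center of the octamer. The H3 genes with the highest means were his-59 (IV:7488206-7488677) and his-32 (IV:8334285-8334752). The counts of his-59 were 365, 237 and 261 in P1, against 209.7, 197 and 343 in AB (log2 fold change 0.19, SE 0.37, edgeR adjusted p = 0.883). The gene his-32 had 344, 148 and 190.4 in P1, against 119, 159 and 202 in AB (log2 fold change 0.49, SE 0.43, edgeR adjusted p = 0.745). Values of the 2 cells overlapped for both genes.

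Of the H4 genes, his-37 (V:9547059-9547579, 2 exons) was the only present histone gene whose P1 libraries all lay above its AB libraries, with 1102, 492 and 559.7 normalized read counts in P1, against 363, 464 and 459 in AB. The gap between the lowest P1 and the highest AB library was small beside the distance of P1 replicate 1 from the others. Its log2 fold change was 0.73 (SE 0.32, 95% interval 0.07 to 1.39, unadjusted p = 0.0305), which did not pass adjustment (edgeR adjusted p = 0.550). Over all present gene models, 7.1% had every P1 library above every AB library and 8.81% every P1 library below, whereas 1 and 0 of the 28 histone genes did. Without P1 replicate 1 and its AB partner, the log2 fold change of his-37 was 0.18. The next H4 gene, his-60 (IV:7487556-7487986), had 549, 228 and 293 in P1, against 303, 258 and 358 in AB (log2 fold change 0.21, SE 0.37, edgeR adjusted p = 0.865).

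The linker histone gene his-24 (X:14490037-14491041, 2 exons), which encodes an H1, had the largest difference and the least even counts. It had 10, 0 and 187 raw reads in P1, against 5, 1702 and 6 in AB, or 13.6, 0 and 182 normalized read counts in P1 and 5.17, 1261 and 5.03 in AB. AB replicate 2 alone held 86.0% of its normalized read counts, and the other AB libraries lay between the P1 values. The log2 fold change was -2.68 (SE 1.19, 95% interval -5.14 to -0.23, edgeR unadjusted p = 0.0330, adjusted p = 0.564). Within pairs 1, 2 and 3 the log2 ratio, with 1 added to each count, was 1.24, -10.30 and 4.92. A fit that blocked on the replicate number gave a log2 fold change of 0.33 (edgeR adjusted p = 0.985), and without AB replicate 2 it was 3.65 (edgeR adjusted p = 0.270). The direction of his-24 thus turned on 1 library. Of the 9 fits that left out a library or a pair, 6 gave an adjusted p under 0.10 with a negative sign, each with AB replicate 2 still included, for example 5.58e-17 by edgeR without P1 replicate 3. In 0.806% of present gene models (64 of 7945) 1 library held more than 80% of the normalized read counts, and his-24 was the only one of these with a mean above 100.

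**Figure D3:**
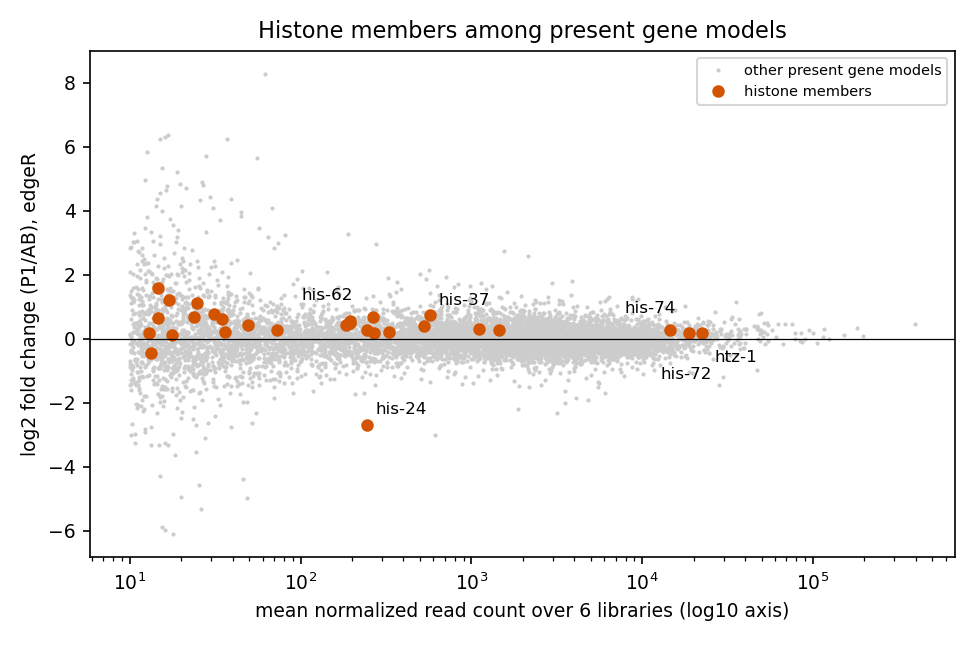
Log2 fold change (P1/AB, edgeR) against the mean normalized read count over the 6 libraries, on a log10 axis, for the 28 present histone genes (orange) and all other present gene models (gray). Apart from his-24 at -2.68, the 14 histone genes with a mean above 100 lie between 0.18 and 0.73.

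Most histone genes leaned the same way without passing the test. Of the 28 present genes, 26 had a positive log2 fold change, with a median of 0.36 and a range of -2.68 to 1.59, where 51.3% of all present gene models were positive and their median was 0.01. Above a mean of 100 normalized read counts the 14 genes other than his-24 had log2 fold changes of 0.18 to 0.73 with SEs of 0.24 to 0.48, and the interval excluded 0 for his-37 alone. The 13 genes at or below 100 ranged from -0.45 to 1.59 with SEs of 0.67 to 1.28. These genes share libraries, and the copies may share reads, so they are not independent of each other.

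The lean was seen in pair 1. Within that pair the median log2 ratio of the 28 genes was 1.15 and 27 were positive, where all present gene models had a median of -0.03 and 48.04% were positive. In pair 2 the median was -0.07 with 11 positive, and in pair 3 it was -0.03 with 12 positive, beside 50.9% and 49.7% of all present gene models. Of the 28 genes, 4 (his-63, his-2, his-37 and his-31) were higher in P1 in all 3 pairs. This is near the background, as 19.1% of all present gene models were. P1 replicate 1 was the highest of the 6 libraries for 25 of the 28 genes, beside 33.3% of all present gene models, and AB replicate 1 the lowest for 15. When P1 replicate 1 was left out, 14 of the 28 were positive. Without AB replicate 1 alone, 25 were positive and the median was 0.25. When both libraries of pair 1 were left out, 10 were positive and the median was -0.04. A positive ratio in pair 1 was not limited to the members. The present hil genes had 0.36 to 1.33 there, and the chaperone genes listed below had -1.45 to 0.42. The background holds gene models of all lengths and was not matched to the mostly short histone models. In the study, short gene models were associated with enrichment in P1. The part of length in the lean was not tested.

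**Figure D4:**
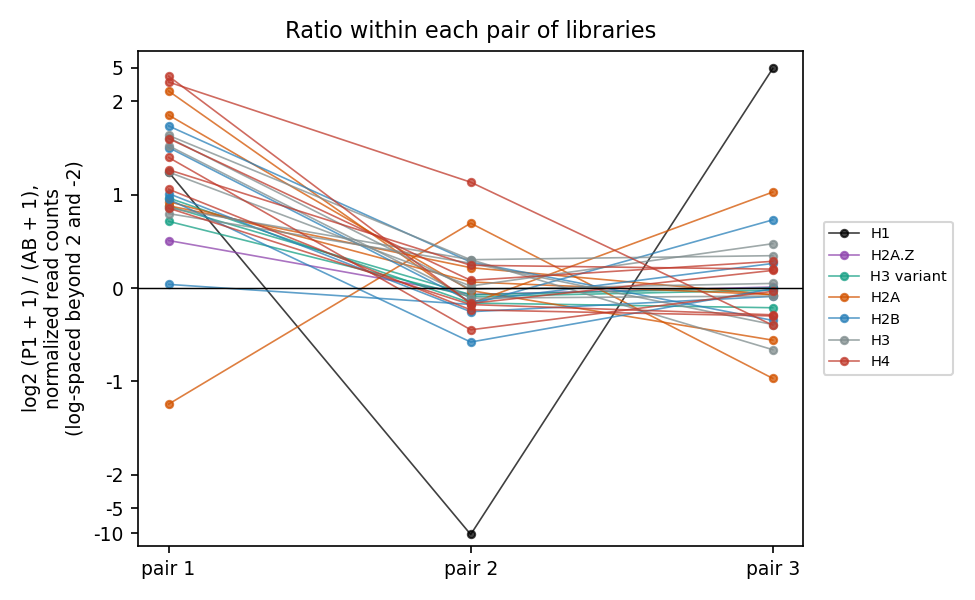
Log2 ratio of P1 to AB normalized read counts, with 1 added to each, within each pair of libraries for the 28 present histone genes, colored by class (lines join the values of a gene, and the axis is log-spaced beyond 2 and -2). Medians are 1.15 in pair 1, -0.07 in pair 2 and -0.03 in pair 3, and the black line is his-24.

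The sums over a class do not depend on how the counted reads were divided among its copies, though reads that were not counted because they match several copies would be missing from them. They had the same form. H4 genes summed to 2223, 909 and 1143 normalized read counts in P1 replicates 1 to 3, against 852, 936 and 1125 in AB, and within pairs 1, 2 and 3 their log2 ratio was 1.38, -0.04 and 0.02. For H3 it was 1.18, 0.13 and -0.16, for H2B 1.08, -0.25 and -0.04, and for H2A 1.01, 0.10 and -0.12. The variants followed with smaller ratios in pair 1, 0.84, -0.12 and -0.10 for the H3 variants and 0.51, -0.07 and 0.01 for H2A.Z. All histone genes together took 3065, 1962 and 2286 CPM in P1, against 1904, 2201 and 2343 CPM in AB. P1 replicate 1 was the one library outside the range of the others by more than their spread. Markers of other cells were 35 gene models for sperm, muscle, intestine and hypodermis. Of these, 29 were sperm msp genes with 1 raw read in all, and the 28 models at 0 were all msp genes. As for the histone copies, how reads that match several msp genes were counted is not given. Each marker of muscle, intestine and hypodermis had reads. The markers summed to 318, 8.14 and 4.86 normalized read counts in P1 and 261, 2.22 and 55.4 in AB, with vit genes of the intestine leading in replicate 1 of both cells. Their part in the histone values of P1 replicate 1, and that of its lower total, was not tested.

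By position, 62 of the 68 genes lay at 13 loci in which neighbors were at most 5000 bases apart, and 6 stood alone (his-72, htz-1, his-74, his-38, his-71 and his-24). The loci differed in how many reads they collected. The 3 intron-bearing genes his-35, his-41 and his-37 lie side by side (V:9544652-9547579) and had a summed mean of 2559.6 normalized read counts. The quartet his-61, his-62, his-60 and his-59 (IV:7485738-7488677), with 1 gene of each core class and no introns, summed to 1059. In contrast, the locus with the most genes, 11 members at II:13817691-13828628, summed to 2.65, and the 6 genes at V:8847371-8854031 had no read. Both loci consist mostly of multi-name lines.

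Genes that act with histones were read from the same test, in a list of other linker histones, centromeric H3, chaperones and the protein that binds the histone stem-loop. Of 24 genes 23 were found and 20 were present, of which 1 was called higher in P1 and none lower (0.856% and 0.604% over all present gene models), with log2 fold changes of -0.84 to 1.74 and a median of -0.07. At an unadjusted edgeR p under 0.05 there were 3, beside 10.4% of all present gene models. Besides the called gene these were the chaperone gene hmg-4 and ssl-1, which acts in loading H2A.Z. Their log2 fold changes were -0.59 and -0.84 (edgeR adjusted p = 0.605 and 0.592). The called gene was cpar-1, a homolog of the centromeric H3 protein CENP-A. It had 2497, 1287 and 1499 normalized read counts in P1, against 454, 445 and 667 in AB, so that every P1 library lay above every AB library. Its log2 fold change was 1.74 (SE 0.28, edgeR adjusted p = 0.000956), with positive ratios in all 3 pairs. The main CENP-A gene, hcp-3, had 6504, 4966 and 4993 in P1, against 4666, 5093 and 5283 in AB (log2 fold change 0.12, SE 0.22, edgeR adjusted p = 0.876). cpar-1 and hcp-3 are related in sequence, so some of their reads may be shared. The gene model of cpar-1 runs from about III:9433990 to III:9441380, a longer span than that of hcp-3 (about III:9615230 to III:9616380). Whether reads of neighboring sequence were counted on it was not tested.

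For cdl-1, which encodes the stem-loop binding protein needed for core histone expression, the counts were 12664, 11369 and 9763 in P1, against 16899.8, 12944 and 11366 in AB. P1 was lower in each pair, and its log2 fold change was -0.29 (SE 0.24, edgeR adjusted p = 0.713). The linker histone genes hil-4 and hil-5 had levels per kilobase of 25604 and 30805 normalized read counts, beside 265 for his-24. Their log2 fold changes were 0.29 (SE 0.25, edgeR adjusted p = 0.721) for hil-4 and 0.07 (SE 0.24, edgeR adjusted p = 0.947) for hil-5. The other linker genes lay lower, with 6247 per kilobase for hil-2, 154 for hil-3, 149.6 for hil-1, 15.8 for hil-7, 10.8 for hil-6 and 0 for hil-8. Uneven counts were not limited to his-24, though in the examples here 1 library held less of the total. The gene hil-7, not present at a mean of 8.18, had 0, 0 and 28.2 normalized read counts in P1, against 0, 0.741 and 20.1 in AB. Its counts thus lay mostly in replicate 3 of both cells. For hil-3 they were 167, 29.1 and 176 in P1, against 130.2, 212 and 83.1 in AB. The highest library held 57.4% for hil-7 and 26.6% for hil-3.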

How the data were processed

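RNA of P1 and AB cells was amplified and sequenced in 3 libraries of each. Groups and replicate numbers come from the sample labels. The authors deposited raw counts of reads per gene model, for which reads were cleaned with Tagdust, aligned with TopHat 1.4.0 (build ce10) and assigned to WS220 RefSeq models with HTSeq 0.5.3. The second deposited table holds normalized read counts, a signal equal to the raw count over a DESeq 1.2.1 size factor of the library. How reads with several matches and strand were treated is not given in the sources used here. Totals ran from 21249850 to 35591254 counted reads.

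Fold changes (P1/AB) came from edgeR 4.0.16 in R 4.3.3 (glmQLFit, glmQLFTest, TMM, no block) on raw counts. All 13717 gene models that had any read entered, and p-values were adjusted over them by Benjamini-Hochberg. Present genes were called where the adjusted p was below 0.10. SEs are the size of the log2 fold change over the root of F. Alternatives were DESeq2 1.42.0, other scalings and filters, a replicate block, and each library or pair left out. The edgeR script was tested on simulated data. Tables and figures used Python 3.11.15, pandas 2.3.3 and matplotlib 3.10.9. Exon numbers and spliced lengths are those of the WBcel235 annotation (Ensembl), matched by WormBase identifier for all 68 genes, with no coordinate of that build used. Loci join gene models at most 5000 bases apart.

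The histone genes, their classes and the list of acting genes were chosen with earlier results of these data known. Named with values in each library are his-24, htz-1, the H3 variant genes, his-35, his-68, the 2 genes with the highest mean in each core class, present histone genes with an unadjusted p under 0.05 and, of the list, those called plus hcp-3, cpar-1 and cdl-1. Other genes are named as examples after their values were seen.

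The pairing comes from the study's methods, by which matched cells were pooled for each replicate. Deviations from the mean of each cell correlated at 0.175, 0.220 and 0.173 within pairs 1, 2 and 3. Nothing in the labels says that replicates came from separate cultures, so p-values measure the spread between these libraries. No sequence is shown.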

Additional observations from a re-analysis of the deposited data

How the results depend on the processing

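Among the histone genes, 0 were called higher in P1 in every fit run, and 0 were called lower with DESeq2, other size factors, library totals alone, both filters, the replicate block, an adjusted p under 0.05 and a present rule at 50 normalized read counts. With libraries or pairs left out the number called lower was 0 to 1, the 1 being his-24. The replicate block set the log2 fold change of his-24 at 0.33 and changed no call of a histone gene. Over all gene models, 48 were called lower and 68 higher in P1. DESeq2 called 75 lower and 95 higher, a fit of present gene models only called 25 lower and 27 higher, and filterByExpr left 26 lower and 27 higher. The fits without a library or a pair gave 27 to 279 lower and 44 to 293 higher, and those without a single library gave 33 to 279 lower and 44 to 284 higher. The cause was not tested.

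Leaving out libraries or pairs turned the sign of several log2 fold changes, of which only his-24 was called in any such fit. The ranges were -6.58 to 4.22 for his-24, -0.10 to 0.82 for his-32, -0.036 to 0.64 for his-35, -0.17 to 0.48 for his-41, -0.12 to 0.57 for his-59, -0.26 to 0.47 for his-60, -0.018 to 0.54 for his-68, -0.039 to 0.45 for his-71, -0.066 to 0.33 for his-72, -0.20 to 0.52 for his-74 and -0.089 to 0.31 for htz-1. The median over the present histone genes was -0.04 to 0.63 in these fits and 0.31 to 0.38 under the other settings. With the model length of the files in place of the spliced length, H2A.Z had 22595 normalized read counts per kilobase instead of 30659.6. H2B had 2065 instead of 3846. The model of htz-1 spans 996 bases against 734 spliced, and that of his-41 spans 1308 against 515. Models of single-exon genes can be longer too, as for his-48 with 504 against 372 bases. The source of the added length was not tested. With 3 libraries a cell, the widest 95% interval of a present histone gene reached 2.63 log2 units to each side. The uses of library totals for counts of calls and of the present rule at 50 were chosen after seeing the data.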

Other observations

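The 64 present gene models with more than 80% of their normalized read counts in 1 library were spread unevenly: 35 had that library as P1 replicate 3, 13 as P1 replicate 1, 13 as AB replicate 2, 2 as AB replicate 3, 1 as AB replicate 1 and 0 as P1 replicate 2. Besides his-24, whose library was AB replicate 2, no histone gene was among them. The next highest share of a single library was 53.9%, for his-1 in P1 replicate 1. In 3 further lines the RefSeq name is that of a histone gene although the public name is not, and these lines had 0 reads.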
